A study of Mus musculus with 12 samples.

Results

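Cells that received both a mutant Notch1 and Zmiz1 were compared with cells that received the empty vectors, across the genes expressed in a mouse T cell leukemia line. The comparison used 6 of the 12 RNA-seq libraries of the study, 3 on each side, and 10152 of the 23284 listed symbols. These had an average over all 12 libraries of 1 or more FPKM, a read level divided by transcript length and by the mapped fragments of the library. The cells were the 8946 line, labelled as T lymphoblastic leukemia, transduced with a pair of retroviruses at once. The control group carried empty MigR1, which marks cells with GFP, and empty NGFR vector, which marks them with the NGFR surface receptor. The combined group carried L1601P-IRES-GFP, the Notch1 L1601P mutant, and Zmiz1-IRES-NGFR. All groups were sorted as GFP+ and NGFR+, so every library came from doubly transduced cells of the same line. The other groups, 3 libraries each, carried 1 gene and 1 empty vector. Their titles (Zmiz1 alone, Notch1 alone) contradict their cell line labels, and they are called Zmiz1-titled and Notch1-titled here. Their levels of the added genes, given below, followed the titles. For the control and combined groups both labels name the same vectors.

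Notch1 is a receptor whose intracellular part, once released by cleavage, enters the nucleus and turns on genes with the DNA-binding protein Rbpj and Mastermind coactivators. The L1601P substitution lies in the heterodimerization domain that holds the receptor together, and such mutations, frequent in T cell leukemia, release signaling without a ligand. Zmiz1 is a PIAS-like coactivator, and the study's title names it as a selective coregulator of Notch1. In the literature the 8946 line is described as driven by a repressible human MYC transgene, which the labels do not state.

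The labels do not say whether replicates came from separate transductions or cultures, so p-values measure the spread between these libraries, which may be technical. Replicate 1 of each group stood apart in the spacing of its lowest FPKM values. Under 0.06 FPKM, between 2.57 and 3.96% of shared low genes fell in the fullest ratio bin for the 32 pairs of 1 replicate 1 library and 1 other, against 12.5 to 27.3% for pairs of replicate 1 libraries and 25.7 to 35.2% for pairs of the others. This difference was balanced over the groups, and with only 1 replicate 1 library a group nothing could be tested among those libraries alone. Zmiz1-titled replicate 2 had the lowest average correlation with the rest, 0.942, against 0.949 (Notch1-titled replicate 3) to 0.957 in the other libraries. Zmiz1-titled replicate 2 enters this comparison only through the shared estimate of the spread and the filter on the mean over all libraries. Summed values ran from 549098 to 606908 FPKM, and 14233 to 14554 symbols were above 0 in each library.

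The labelled cell type was checked against its markers. Of 11 measured T cell defining markers none was called (limma, 1 at an unadjusted p under 0.05), and their summed level was 6648 to 6876 FPKM in control and 6724 to 7050 FPKM in combined libraries. Cd3d, a chain of the T cell receptor complex, was at 256 and 218 FPKM by the means (-0.23, adjusted p = 0.063). It was called lower with median ratio scaling (adjusted p = 0.0392), quantile normalization (0.00311), only the 2 groups compared (0.0441) or a term for the replicate 1 libraries (0.0357), and without Zmiz1-titled replicate 2 (0.0439) or Notch1-titled replicate 3 (0.0369). Markers of B cells, NK cells, fibroblasts and early progenitors each summed to at most 1.91 FPKM in every control and combined library, and none of them passed the filter. The myeloid list had 1 tested member, the integrin Itgam, described with the adhesion genes. Erythroid markers summed to 125 to 144 FPKM in control and 143 to 171 FPKM in combined libraries, with 2 members tested and 0 called (1 rose with the replicate block). In these bulk libraries fewer cells of a kind and less RNA per cell cannot be told apart.

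Both added genes were high in the combined libraries. Zmiz1 (chr14:25459185-25666743, mm10) was at 0.18, 0.17 and 0.176 FPKM in the control libraries and at 47.6, 49.3 and 51 FPKM in the combined libraries, 281-fold higher by the means. Notch1 (chr2:26457903-26516663) was at 1.91, 1.97 and 1.8 FPKM against 33.5, 36.2 and 37.2 FPKM, 18.8-fold higher. Neither gene's groups overlapped. On the scale of log2(FPKM + 1) the differences were 5.42 ± 0.05 (SE; limma, adjusted p = 3.25e-13) and 3.66 ± 0.17 (adjusted p = 6.04e-07). Vector and endogenous transcripts cannot be told apart in gene-level values, nor can the mutant be told from normal Notch1. Ngfr, the gene behind the surface marker, was at 82.8, 83.8 and 88.9 FPKM with the empty marker vector and at 5.65, 5.66 and 5.62 FPKM where Zmiz1 preceded the marker on the same transcript (-3.70 ± 0.09, adjusted p = 1.75e-09). These 3 genes followed the labels of both groups. In the single-vector groups they followed the titles and not the cell line labels. Zmiz1 was at 70.8 ± 3.39 FPKM in Zmiz1-titled and 0.212 ± 0.0153 FPKM in Notch1-titled libraries, Notch1 at 2.1 ± 0.218 and 32.1 ± 10.1 FPKM, and Ngfr at 7.43 ± 0.248 and 72.9 ± 10.1 FPKM (SD, n = 3). Of 13 PIAS and Zmiz family genes Zmiz1 rose and 1 fell, Pias3 (-0.27, adjusted p = 0.0411), whose call was lost without any 1 of the compared libraries (adjusted p = 0.0865 to 0.171).

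**Figure D1:**
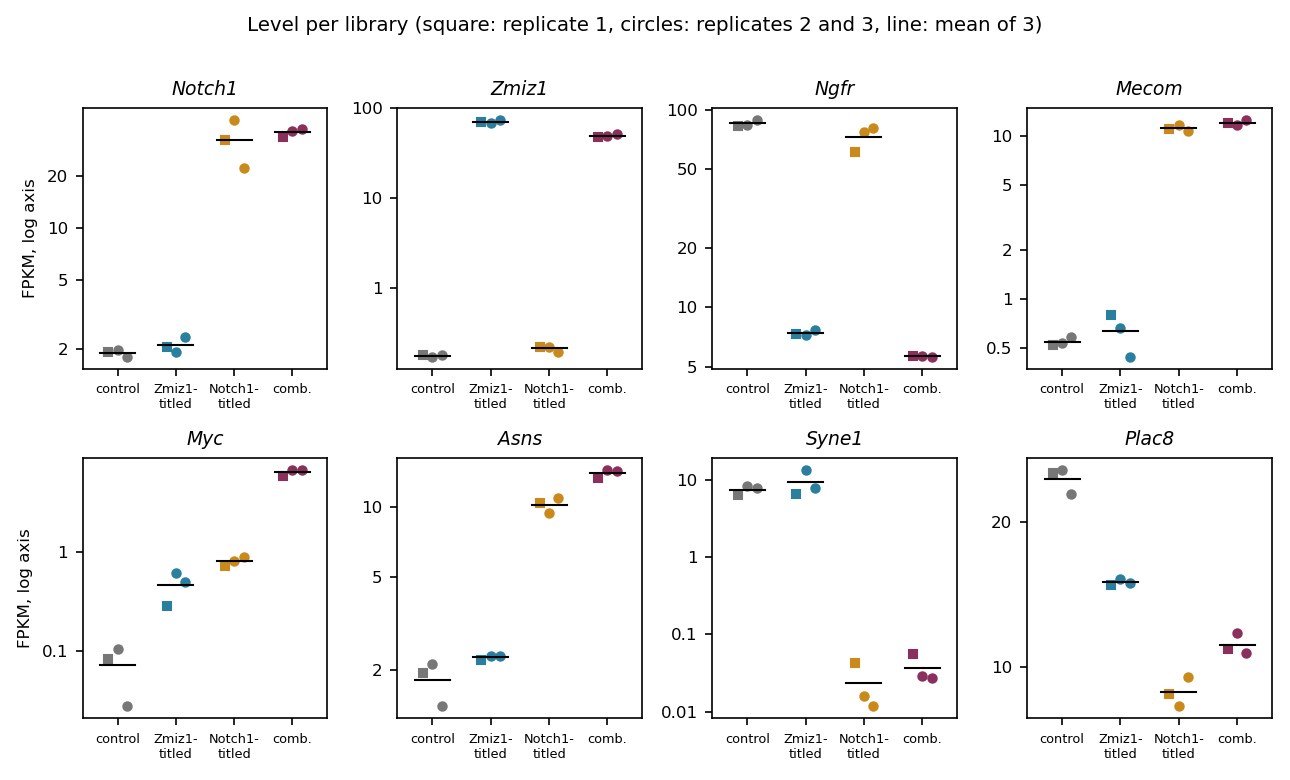
FPKM in each of the 12 libraries on a log axis for 8 genes: the added genes Notch1 and Zmiz1, the marker Ngfr, and 5 of the genes with the largest differences. Squares are replicate 1, circles replicates 2 and 3, and lines the mean of 3; "comb." is the combined group. In all 8 panels the combined points (purple) lie apart from the control points (grey), and Myc is higher in the combined group, at 5.91 to 6.87 FPKM, than in either single-vector group.

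Of 10152 genes tested, 656 were called at an adjusted p below 0.05 (6.46%), of which 403 rose (3.97%) and 253 fell (2.49%). The combined and control libraries did not overlap in any of the 656, while 33.6% of all tested genes had groups that did not overlap. Most changes were small: the median absolute difference of called genes was 0.42, and 52 reached 1 on the log2(FPKM + 1) scale, 46 rising and 6 falling. This scale understates the change of low genes. A further 9496 genes were not called. Positive differences were found in 5736 of all 10152 genes, and 1941 had an unadjusted p under 0.05 (limma). The count depended on the libraries, running from 339 to 405 when 1 of the 6 compared libraries was left out (339 without control replicate 2, 405 without combined replicate 1), and it was 1090 without Zmiz1-titled replicate 2. With the replicate number as a block it was 1158 (723 rose, 435 fell). Among replicates 2 and 3 alone it was 195 (136 rose, 59 fell). The split of 61.4% rising against falling moved to 52.6% with median ratio scaling and 48.1% with quantile normalization. Those settings changed the median difference of all genes by -0.025 and -0.028.

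**Figure D2:**
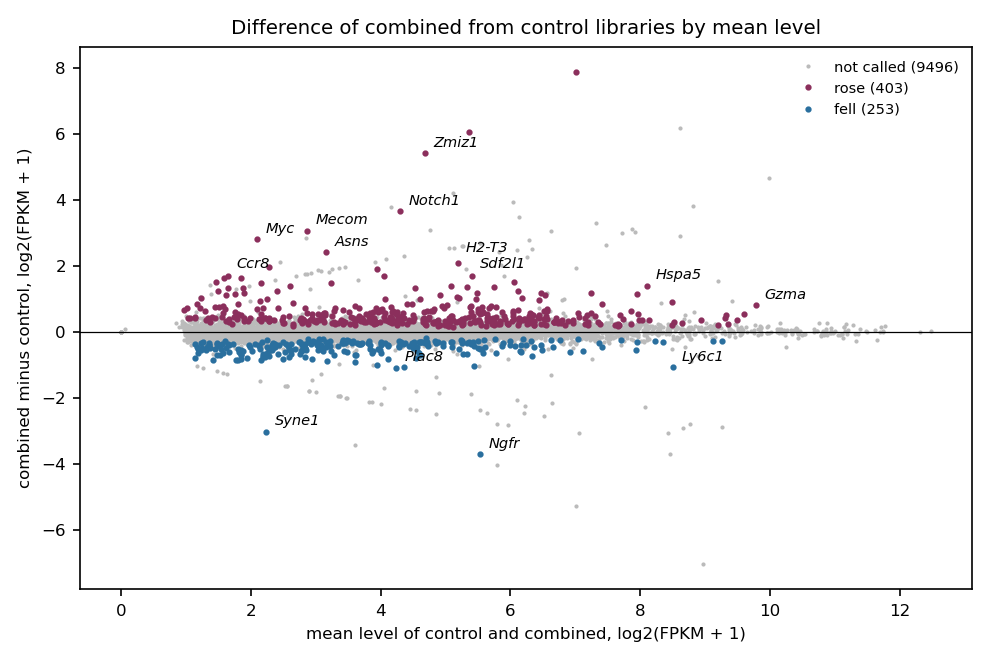
Mean level over the control and combined libraries (log2(FPKM + 1)) against the difference between the groups for the 10152 genes tested, with called genes in color. The largest differences are in the added genes and Mecom, Myc and Asns on the upper side and Ngfr and Syne1 on the lower side, and the unlabelled points farthest from 0 include short noncoding RNA genes, of which 234 were tested and 3 called.

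Beyond the vector genes, Mecom, Myc and Asns had the largest rises among protein-coding genes and Syne1 the largest fall. Mecom (chr3:29951296-30548008), a zinc finger transcription factor known as an oncogene in myeloid leukemia, was at 0.52, 0.533 and 0.586 FPKM in control and at 11.9, 11.7 and 12.6 FPKM in combined libraries, a 22-fold ratio of means (3.08 ± 0.08, adjusted p = 4.32e-09). It was nearly as high in the Notch1-titled libraries, at 11.1 ± 0.48 FPKM (SD, n = 3), and the difference from the combined libraries was not called (0.11, adjusted p = 0.881). Syne1 (chr10:5020917-5551482), which encodes the nuclear envelope protein nesprin-1, was at 6.27, 8.21 and 7.72 FPKM in control and at 0.055, 0.0286 and 0.0271 FPKM in combined libraries (-3.01 ± 0.20, adjusted p = 7.07e-06). The Zmiz1-titled libraries kept it at 9.22 ± 3.75 FPKM and the Notch1-titled libraries had 0.0232 ± 0.0165 FPKM (SD, n = 3).

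Myc (chr15:61985391-61990374), the transcription factor that drives cell growth and a classical Notch target in T cell leukemia, was almost silent in control libraries, at 0.0828, 0.106 and 0.0274 FPKM. With both vectors it stood at 5.91, 6.76 and 6.87 FPKM (2.81 ± 0.10, adjusted p = 7.28e-08), a ratio of means of 90.5. The single-vector libraries had 0.465 ± 0.165 FPKM (Zmiz1-titled) and 0.807 ± 0.083 FPKM (Notch1-titled; SD, n = 3), so the lowest combined library was above every single-vector library. The combined libraries exceeded the Notch1-titled ones by 2.05 (adjusted p = 1.5e-06) and the Zmiz1-titled ones by 2.36 (adjusted p = 6.48e-07). Each of these calls held without any 1 of the 12 libraries. These values are listed under the mouse gene, and whether reads of a human MYC would be counted there was not tested.

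Genes of protein folding in the endoplasmic reticulum (ER) had the largest positive median difference of the 44 gene lists. The unfolded protein response senses misfolded protein in the ER through Ern1, Atf6 and Eif2ak3, and raises chaperones, disulfide isomerases and degradation factors through Xbp1, Atf6 and Atf4. Of 34 listed genes 33 passed the filter, and 26 rose and 1 fell, with a median difference of 0.65 against 0.02 over all genes tested. Of the 33, 81.8% were called, against 6.46% of all genes. Leaving out 1 of the 6 compared libraries left 21 to 23 rising, and 22 rose among replicates 2 and 3 alone.

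The promoters of 4 risen ER genes and of Asns and Ptcra, described further on, are shown because the response elements of these pathways can be read in them. ERSE, the ER stress response element, was taken as CCAAT and CCACG with any 9 bases between them and was searched on both strands in RefSeq windows (GRCm38.p6) of 300 bases, from 250 before to 50 after each transcript start. It occurred in 39 of 32851 windows, or 0.119%, and in 0.158% of the windows of tested genes. Of the 24 risen ER genes with a window, 9 held it: Hspa5, Hsp90b1, Calr, Canx, Pdia6, Dnajc3, Creld2, Syvn1 and Ero1lb, against 0 of 5 listed genes that did not rise. Those 5 are too few for a comparison. The list was made of genes of this response, with earlier results of these data known, so the 9 matches describe the list and test nothing. The 250 bases before the start follow, 5′ to 3′ on the gene's strand, with the matches in capitals; a match on the other strand reads CGTGG first.
Hspa5, chr2:34771840-34772089, plus strand: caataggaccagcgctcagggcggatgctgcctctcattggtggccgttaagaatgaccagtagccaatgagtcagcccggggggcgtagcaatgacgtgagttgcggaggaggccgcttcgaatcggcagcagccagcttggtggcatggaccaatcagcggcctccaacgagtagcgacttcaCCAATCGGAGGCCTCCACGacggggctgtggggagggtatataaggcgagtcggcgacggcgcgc
Hsp90b1, chr10:86705445-86705694, minus strand: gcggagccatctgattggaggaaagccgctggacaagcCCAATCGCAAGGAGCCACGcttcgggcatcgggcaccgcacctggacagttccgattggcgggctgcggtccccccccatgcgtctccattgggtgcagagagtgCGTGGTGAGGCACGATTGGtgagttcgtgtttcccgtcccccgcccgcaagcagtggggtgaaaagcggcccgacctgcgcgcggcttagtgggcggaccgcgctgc
Pdia6, chr12:17266339-17266588, plus strand: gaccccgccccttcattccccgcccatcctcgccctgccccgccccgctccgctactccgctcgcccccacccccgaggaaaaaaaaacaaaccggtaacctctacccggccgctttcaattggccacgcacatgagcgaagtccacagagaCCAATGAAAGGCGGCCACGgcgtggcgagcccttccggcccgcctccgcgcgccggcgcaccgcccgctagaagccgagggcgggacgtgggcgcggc
Creld2, chr15:88819396-88819645, plus strand: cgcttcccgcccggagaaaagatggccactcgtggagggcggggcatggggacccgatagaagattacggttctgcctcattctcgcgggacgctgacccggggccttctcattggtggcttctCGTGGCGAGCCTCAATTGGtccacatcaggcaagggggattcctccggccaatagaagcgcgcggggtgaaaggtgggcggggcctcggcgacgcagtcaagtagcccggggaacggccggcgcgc
The match began 65 bases before the start in Hspa5, 98 in Pdia6 and 126 in Creld2, and Hsp90b1 held a pair, at 212 and 107 bases. The element is a match of letters, and binding was not measured.

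Chaperones of the ER lumen rose. Hspa5 (chr2:34771970-34777547), the ER's Hsp70, known as BiP, was at 152, 151 and 146 FPKM in control and at 389, 404 and 402 FPKM in combined libraries (1.41 ± 0.10, adjusted p = 1.81e-05). Hsp90b1 (chr10:86690209-86705509), the ER's Hsp90, was at 150, 154 and 156 FPKM against 320, 340 and 360 FPKM (1.14 ± 0.08, adjusted p = 1.22e-05). The lectin chaperone calreticulin, Calr, was at 238, 255 and 248 FPKM against 432, 500 and 470 FPKM (0.92 ± 0.08, adjusted p = 4.58e-05). For all 3 genes the lowest combined library lay well above the highest control library. Sdf2l1, a partner of BiP, had the largest rise of the list, from 17.8, 20.1 and 19.3 to 62.9, 64.6 and 63.3 FPKM (1.69 ± 0.12, adjusted p = 8.99e-06). The nucleotide exchange factor Hyou1 went from 27.6, 30.2 and 29.2 to 70.8, 79.4 and 80.2 FPKM (1.37 ± 0.08, adjusted p = 2.78e-06), and the secreted factor Manf from a mean of 53.8 to 122 FPKM (1.17, adjusted p = 4.05e-06).

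Disulfide isomerases and degradation factors rose as well. Pdia6 went from 93.9, 89.6 and 88.8 to 200, 216 and 210 FPKM (1.19 ± 0.07, adjusted p = 4.97e-06), and Pdia4 from a mean of 23.2 to 49 FPKM (1.05, adjusted p = 9.25e-05). Pdia3 and P4hb, the most classical isomerases, rose by less, by 0.64 and 0.53. The oxidase Ero1lb rose by 0.87, and Creld2 by 1.26. Herpud1, which serves the removal of misfolded proteins, went from 28.5 ± 1.39 to 58.5 ± 0.134 FPKM (SD, n = 3; 1.01, adjusted p = 3.82e-04). Syvn1, Edem1, Edem2 and Sel1l of the same removal route rose by 0.30 to 0.37. The calls of Sel1l, Ssr1, Edem1, Sec61b and Edem2 were lost without 1 or more of the 6 compared libraries, and that of Edem2 only without control replicate 3 (adjusted p = 0.0532). Derl3, below the filter, was at 0.0961, 0.0513 and 0.159 FPKM in control and at 1.56, 1.11 and 1.52 FPKM in combined libraries, and was called in a fit without the filter (1.12, adjusted p = 2.73e-04).

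The sensors and transcription factors of the response did not move as 1 group. Xbp1, whose RNA is also spliced during ER stress, was at 57.4, 58.4 and 56.1 FPKM in control and at 114 FPKM in each combined library (0.98 ± 0.07, adjusted p = 9.79e-06). Atf6, a sensor and transcription factor, fell from 28.2, 26.9 and 27 to 18.3, 18 and 18 FPKM (-0.57 ± 0.09, adjusted p = 0.0039), the 1 fall of the list, and its call was lost among replicates 2 and 3 alone (adjusted p = 0.118). Neither splicing of Xbp1 nor cleavage of Atf6 is visible in these values. The sensor Ern1 was at a mean of 6.9 FPKM in control and 4.86 FPKM in combined libraries and was not called (-0.43, adjusted p = 0.286), and Eif2ak3, the third sensor, differed by 0.08 and was not called. The stress factor Ddit3, known for promoting cell death, was at 22.5 ± 4.25 and 23.9 ± 3.36 FPKM (SD, n = 3), with overlapping groups (adjusted p = 0.882).

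**Figure D3:**
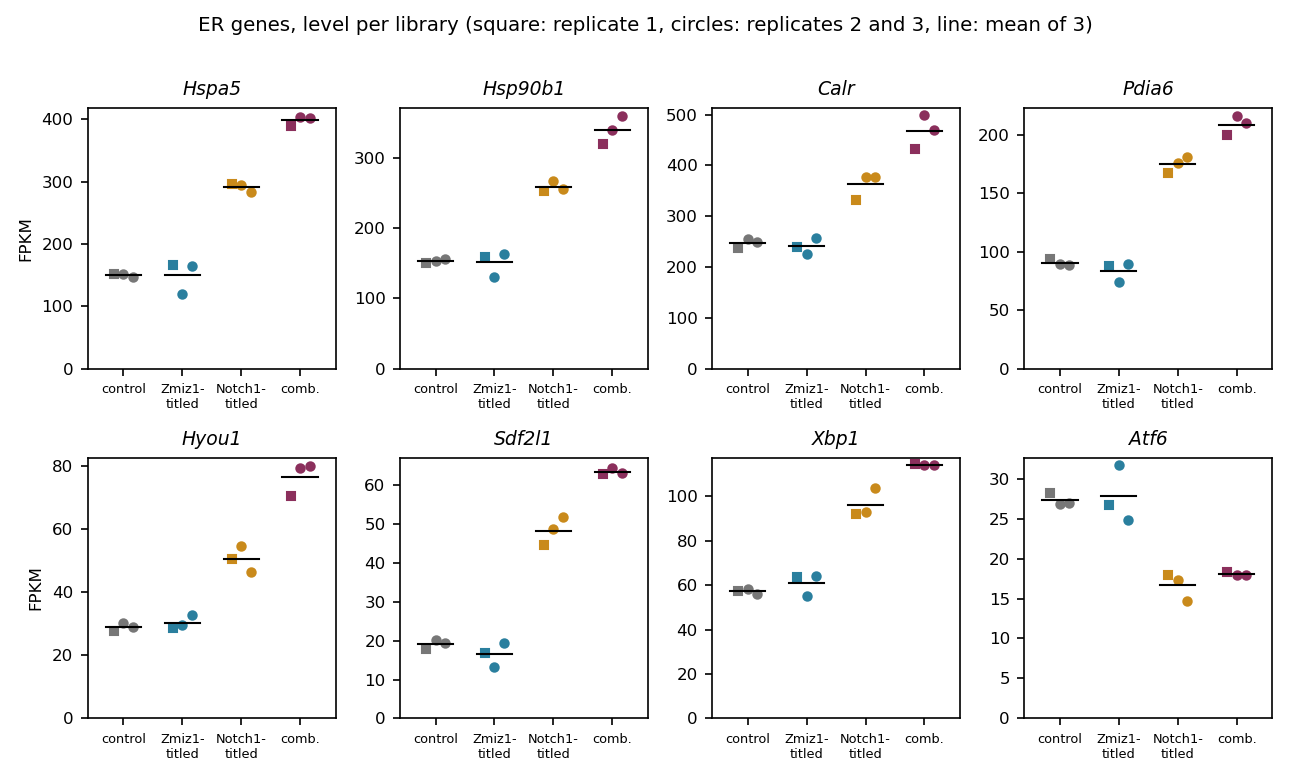
FPKM in each library, from 0, for 8 genes of ER folding, with symbols as in the other plots of libraries. In 7 panels the combined libraries are the highest group, as in Hspa5 at 389 to 404 FPKM, and in Atf6 the combined and Notch1-titled libraries lie below the other groups.

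Asparagine and serine metabolism rose with the ER genes. Asns (chr6:7675169-7693254), asparagine synthetase, a target of Atf4 in amino acid shortage, was at 1.93, 2.12 and 1.39 FPKM in control and at 13.3, 14.5 and 14.3 FPKM in combined libraries (2.43 ± 0.10, adjusted p = 1.52e-07). The Notch1-titled libraries had 10.3 ± 0.783 FPKM and the Zmiz1-titled ones 2.26 ± 0.0496 FPKM (SD, n = 3). Asns was 0.42 higher in combined than in Notch1-titled libraries and not called (limma, adjusted p = 0.0629). Without control replicate 3 it was called (0.0202), as with short noncoding RNA genes left out (0.048). Of 26 tested genes of the amino acid stress, serine and one-carbon list 13 rose and 0 fell, 50% called against 6.46% of all genes. The median was 0.45, and 11 to 12 rose without 1 of the compared libraries and 9 among replicates 2 and 3 alone. The mitochondrial serine hydroxymethyltransferase Shmt2 went from 25.8, 26.4 and 26.8 to 58.6, 62.8 and 61.4 FPKM (1.18 ± 0.05, adjusted p = 5.54e-07). Slc7a5, the light chain of a large neutral amino acid transporter, went from 23.6, 21.8 and 22.2 to 49.3, 46.7 and 48.2 FPKM (1.06 ± 0.07, adjusted p = 7.07e-06), and its partner Slc3a2 rose by 0.54. Mthfd2 rose by 0.82, and the serine synthesis enzymes Phgdh and Psat1 rose by 0.75 and 0.62. Atf4 itself was at 70.1, 69.5 and 74.5 FPKM against 94.8, 101 and 98.5 FPKM (0.45 ± 0.07, adjusted p = 0.00204). Among members that were not called were Cebpb (0.61, adjusted p = 0.0758) and Ddit3 (0.09).

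Asns is shown for the sequence TGATGNAA (written with N for any base), the C/EBP-ATF response element, or CARE, that Atf4 is known to bind.
Asns, chr6:7693210-7693459, minus strand: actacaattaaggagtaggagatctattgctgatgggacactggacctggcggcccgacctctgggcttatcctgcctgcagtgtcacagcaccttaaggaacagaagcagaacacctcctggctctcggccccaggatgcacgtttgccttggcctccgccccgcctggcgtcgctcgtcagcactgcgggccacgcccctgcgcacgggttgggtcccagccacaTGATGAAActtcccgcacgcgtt
The match began 23 bases before the start. The same letters were in 3.97% of all windows, in 1 of 11 risen members with a window and in 3 of 11 members that did not rise.

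Enzymes that charge tRNA with amino acids, the cytosolic aminoacyl-tRNA synthetases, were raised in the same libraries. Of 20 genes tested 11 rose and 0 fell, 55% called against 6.46% of all genes. The median was 0.34, and 8 to 10 rose without 1 of the compared libraries and 7 among replicates 2 and 3 alone. Cars went from 11.4, 12 and 13.5 to 20, 21.4 and 22.5 FPKM (0.75 ± 0.09, adjusted p = 4.9e-04), Aars from 21.6, 22.1 and 23.8 to 36.2, 39.8 and 39 FPKM (0.74 ± 0.07, adjusted p = 1.04e-04), and Nars from 32.9, 32.5 and 32.4 to 50.7, 50.6 and 48.4 FPKM (0.60 ± 0.05, adjusted p = 2.13e-05). The groups did not overlap in any of the 3. Yars rose by 0.60 as well, from 19.1 to 29.6 FPKM by the means (adjusted p = 0.00312). Qars differed by -0.07 and was not called.

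Genes of nucleotide and polyamine synthesis, known Myc targets in many cells, were partly called. Of 23 nucleotide synthesis genes 9 rose and 0 fell, 39.1% called against 6.46% of all genes. All 23 had positive differences, with a median of 0.19 (4 to 7 rose without 1 of the compared libraries, 2 among replicates 2 and 3 alone, 6 with either rescaling). Cad, the enzyme that opens pyrimidine synthesis, went from 7.13, 6.86 and 7.73 to 11.8, 12.6 and 11.8 FPKM (0.67 ± 0.09, adjusted p = 8.81e-04). Prps2, which makes the ribose phosphate donor of nucleotides, rose by 0.58 and Dut, which breaks down dUTP, by 0.49. Prps2 lost its call without control replicate 2 or 3 or combined replicate 1 (adjusted p = 0.0606 to 0.0658), and Dut without any 1 of the compared libraries (0.0728 to 0.162) and with median ratio scaling (0.0634) or quantile normalization (0.0741). Nme1 and the salvage kinase Tk1 rose by 0.46 and 0.40. Srm, spermidine synthase of the polyamine route, rose from 2.04, 2.04 and 2.22 to 5.93, 6.93 and 6.43 FPKM (1.26 ± 0.13, adjusted p = 2.49e-04), while Odc1, the first enzyme of that route, was at 71.8 and 84.8 FPKM by the means and was not called (0.24, adjusted p = 0.433). Of 9 polyamine genes Srm was the 1 call (11.1%, against 6.46% of all genes). The E-box CACGTG that Myc binds was in 7.15% of all windows and 10.4% of the windows of tested genes. It was in 1 of 11 risen and in 10 of 36 other members of the ribosome and nucleotide lists.

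Ribosome biogenesis, replication and mitosis genes showed small positive differences, with 16.7, 12.5 and 3.33% of them called against 6.46% of all genes. Of 30 ribosome biogenesis genes 28 were positive (median 0.20), with 4 rising and 1 falling. The rises were Rrp12 (0.42), the box C/D protein Nop58 (0.35), the RNA polymerase I subunit Polr1b (0.33, adjusted p = 0.0077) and the pseudouridine synthase Dkc1 (0.27), and the fall was Wdr12, from 54.6 to 38.2 FPKM by the means (-0.50, adjusted p = 0.0012). Without 1 of the compared libraries 2 to 3 rose, and 0 among replicates 2 and 3 alone. Rrp12 lost its call without any 1 of them (adjusted p = 0.0709 to 0.1), Nop58 without control replicate 1 (0.053) or combined replicate 3 (0.0568), and Dkc1 without control replicate 2 (0.0529). Over all 10152 genes tested 5736 were positive and 1941 had an unadjusted p under 0.05 (limma). Of 32 DNA replication and G1/S genes 30 were positive (median 0.21) and 4 rose, but 21 had an unadjusted p under 0.05. The 4 were the G1/S transcription factor E2f1 (0.33), the helicase subunits Mcm5 (0.24) and Mcm4 (0.22), and the loading factor Cdc6 (0.21), and each lost its call without at least 1 compared library (highest adjusted p = 0.13, 0.0659, 0.165 and 0.147). The count of rises was 0 to 2 without 1 of the compared libraries, 16 with the replicate block, 10 without Zmiz1-titled replicate 2 and 1 with quantile normalization. Of 30 mitosis and spindle genes 29 were positive (median 0.17) and 1 rose, Foxm1, whose call was lost without any 1 of the compared libraries (adjusted p = 0.0692 to 0.183). With the block 7 mitosis genes and 10 ribosome genes rose. Ccnd3, the D cyclin of T cell progenitors, stood out, at 533, 516 and 531 FPKM in control and 754, 744 and 747 FPKM in combined libraries (0.50 ± 0.06, adjusted p = 3.77e-04). In the Myc and Max network Mxd1, a Max partner that opposes Myc, fell from 6.41 to 5.03 FPKM by the means (-0.30, adjusted p = 0.00694).

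**Figure D4:**
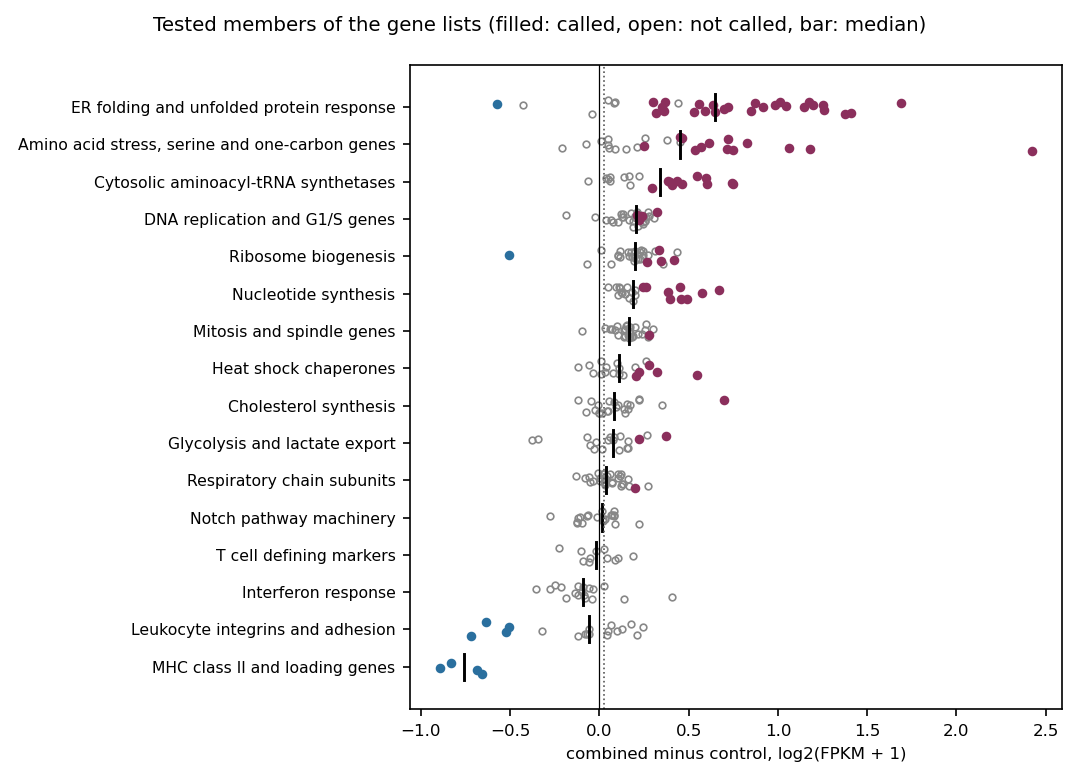
Difference between combined and control libraries on the log2(FPKM + 1) scale for each tested member of 16 gene lists; filled points were called, purple for risen and blue for fallen, open points were not, bars are list medians and the dotted line is the median of all genes. ER folding genes lie farthest to the right, with a median of 0.65, replication, ribosome and mitosis genes crowd near 0.2 as open points, and the 4 MHC class II and loading genes lie to the left.

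Direct Notch target genes rose in part. Of 11 tested targets 5 rose and 0 fell, with a median of 0.26, so 45.5% were called against 6.46% of all genes. The 5 include Notch1, which the vector added, so its rise does not count as a response of a target. Leaving out any compared library left 5 rising. Ptcra (chr17:46755663-46763712), the pre-T cell receptor alpha chain, was at 0.379, 0.645 and 0.64 FPKM in control and at 2.28, 2.22 and 1.96 FPKM in combined libraries (1.02 ± 0.12, adjusted p = 5.91e-04). The pseudokinase Trib2 went from 12.2, 11 and 11.2 to 19.7, 18.8 and 18.8 FPKM (0.69 ± 0.10, adjusted p = 0.00265). Il7r, the interleukin 7 receptor, went from 55.5, 53.1 and 50.3 to 87.5, 81.3 and 83.4 FPKM (0.66 ± 0.08, adjusted p = 5.91e-04), and Ccnd3 is given above. By the means Il7r was at 29.6 FPKM in Notch1-titled libraries, below control, and at 129 FPKM in Zmiz1-titled ones.

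Of the 9 targets below the filter, Hes1 and Hey1, the best known, were listed at 0 in all 12 libraries. In a fit without the filter Dtx1, Il2ra and Notch3 were called, and Hes5, Heyl, Igf1r and Nrarp were not. Dtx1, a ubiquitin ligase of the pathway, was listed at 0 in every control library and at 0.545, 0.515 and 0.663 FPKM in the combined ones (0.65 ± 0.05, adjusted p = 1.16e-04). Il2ra went from a mean of 0.279 to 0.606 FPKM (0.33, adjusted p = 0.0133; 0.0585 without control replicate 3 and 0.0552 without combined replicate 2), and Notch3 from 0.0681 to 0.4 FPKM (0.39, adjusted p = 0.0246; 0.0529 to 0.0999 without any 1 of the compared libraries). Lef1 was at 58.2 and 63.8 FPKM by the means (0.13, adjusted p = 0.373) and Nrarp at 0.186 and 0.256 FPKM (0.08, adjusted p = 0.641). Of the 20 genes of the pathway's machinery 0 were called (limma, 1 at an unadjusted p under 0.05), and Rbpj was at 29.5 and 30.8 FPKM.

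The Ptcra promoter held a pair of matches to TGGGAA, the core that Rbpj binds.
Ptcra, chr17:46763713-46763962, minus strand: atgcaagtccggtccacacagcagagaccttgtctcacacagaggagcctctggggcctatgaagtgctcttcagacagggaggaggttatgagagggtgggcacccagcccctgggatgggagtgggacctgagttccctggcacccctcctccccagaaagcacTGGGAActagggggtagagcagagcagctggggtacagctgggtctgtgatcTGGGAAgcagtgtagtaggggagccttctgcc
These began 84 and 32 bases before the start. Such short letters were in 25.6% of all windows and 22.3% of the windows of tested genes. They were in 1 of 5 risen targets and in 2 of 5 that did not rise.

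Antigen presentation genes were split. Of 20 class I genes tested 4 rose and 1 fell, 25% called against 6.46% of all genes (4 and 4 with the replicate block). H2-T3 was at 10.9, 13.6 and 14.1 FPKM in control and at 51.3, 61.1 and 61.7 FPKM in combined libraries (4.52-fold by the means, adjusted p = 4.01e-06). H2-Bl, H2-T22 and H2-T10 rose by 1.91, 1.71 and 1.38, and H2-T24 fell by 0.40. The Notch1-titled libraries had H2-T3 at 62.2 ± 5.5 FPKM and H2-T22 at 29 ± 1.63 FPKM (SD, n = 3). Between combined and Notch1-titled libraries 0 of the 20 class I genes were called, and against the Zmiz1-titled ones 4 were higher and 1 lower. The class I genes are near copies of each other on chromosome 17, so the authors' counting could split their reads, and the single values are uncertain. Of 11 class II and loading genes 7, Cd74 and H2-Aa among them, were below the filter, and the 4 tested ones fell: H2-Oa from 15, 14.6 and 15.1 to 7.76, 7.76 and 7.14 FPKM (-0.89 ± 0.11, adjusted p = 6.78e-04), and the peptide loading genes H2-DMa, H2-DMb1 and H2-DMb2 by 0.83, 0.66 and 0.68. The loading genes each lost their call without at least 1 compared library (highest adjusted p = 0.125, 0.0634 and 0.0709). Without 1 of the compared libraries 1 to 3 of the 4 were called, and 0 among replicates 2 and 3 alone. H2-Eb2, a class II beta chain outside that list, fell from 3.7, 3.19 and 3.25 to 1.46, 1.32 and 1.51 FPKM (-0.85, adjusted p = 1.73e-04).

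Among surface and signaling genes, chemokine receptors moved in both directions. Ccr8 rose from 0.407, 0.427 and 0.599 to 3.8, 3.33 and 4.21 FPKM (1.69 ± 0.11, adjusted p = 5.8e-06). Ccr7, which guides T cells to lymph nodes, fell from 6.62, 5.98 and 6.17 to 3.23, 2.94 and 3.1 FPKM (-0.83 ± 0.06, adjusted p = 2.2e-05), and the sphingosine phosphate receptor S1pr4 fell by 0.59. Of 12 granule genes 3 rose and 1 fell, 33.3% called against 6.46% of all genes. Gzma, granzyme A, was at 635, 686 and 611 FPKM in control and at 1144, 1153 and 1085 FPKM in combined libraries (0.81 ± 0.08, adjusted p = 1.81e-04), and the granule transport gene Sytl3 went from 0.974, 1.2 and 1.1 to 3.93, 4.57 and 4.33 FPKM (1.34, adjusted p = 7.15e-06). Its relative Sytl2 rose by 0.73 (adjusted p = 0.0077). The cathepsin Ctsw fell by 0.84.

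Of 18 integrin and adhesion genes 0 rose and 4 fell, 22.2% called against 6.46% of all genes. Itgam, an integrin also used as a myeloid marker, was at 98.9, 97.7 and 102 FPKM in control and at 59.2, 59.1 and 61.5 FPKM in combined libraries (-0.72 ± 0.06, adjusted p = 5.89e-05). It made up nearly all of the summed myeloid list, which was 97.9 to 102 FPKM in control and 59.3 to 61.6 FPKM in combined libraries, and Lyz1 and other myeloid markers, 4 of 11, were listed at 0 in all 12. The adhesion receptor Gpr56 fell from 16.8 to 10.4 FPKM by the means (-0.64, adjusted p = 7.12e-05), and Itgb7 by 0.51. Itga4 fell by 0.52, a call lost without any 1 of the compared libraries (adjusted p = 0.0762 to 0.164). Among NF-kB genes the inhibitor Nfkbie rose from 20.1, 22.9 and 21.7 to 52.9, 59.9 and 59.5 FPKM (1.37 ± 0.14, adjusted p = 2.51e-04), the adaptor Traf3 rose by 0.42, and lymphotoxin beta, Ltb, fell by 0.65. Ly6d, a surface protein of early lymphocytes, rose from 11.1, 14.1 and 11.3 to 31.1, 34.4 and 30.6 FPKM (1.33 ± 0.12, adjusted p = 1.04e-04), while Ly6c1 fell from 528, 482 and 463 to 244, 237 and 219 FPKM (-1.07 ± 0.09, adjusted p = 7.68e-05). The tetraspanin Cd53 fell from 1.82 to 0.616 FPKM by the means (-0.78, adjusted p = 0.0185), a call lost without control replicate 1 (0.0506) or combined replicate 2 or 3 (0.0848 and 0.0643).

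The remaining large falls were in genes of mixed function. Plac8 (chr5:100553725-100572245), a small cysteine-rich protein, fell from 25.2, 25.7 and 22.8 to 10.9, 11.8 and 10.7 FPKM (-1.08 ± 0.07, adjusted p = 4.05e-06). Alox5ap, which activates 5-lipoxygenase, fell by 1.04, the interferon-inducible Epsti1 by 1.03 and Sh3bgrl2 by 0.98. P4ha2, a collagen prolyl hydroxylase, fell by 0.87 and Ms4a6c by 0.84. The calls of these 6 genes held without any 1 of the 12 libraries. Among replicates 2 and 3 alone those of P4ha2 (limma, adjusted p = 0.0772) and Ms4a6c (0.0994) were lost. Epsti1 was no member of the interferon list, in which 0 of 18 genes were called (limma, 4 at an unadjusted p under 0.05), with 15 negative and a median of -0.09. Over all 10152 genes tested 4374 were negative and 1941 had an unadjusted p under 0.05. With the replicate block, with median ratio scaling or without Zmiz1-titled replicate 2, 1 gene of that list fell, and with a term for the replicate 1 libraries 1 rose and 2 fell. Of the 7 Schlafen genes 1 rose and 2 fell, Slfn2 by 0.77 and Slfn5 by 0.47. In share 42.9% of them were called, against 6.46% of all genes. The rise, Slfn4 (0.32), lost its call without 5 of the 6 compared libraries in turn (adjusted p up to 0.136). Cd7, a T lineage surface protein, fell from 46, 48.4 and 45.2 to 28.3, 29.3 and 28.9 FPKM (-0.67, adjusted p = 0.00533).

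Other large rises were the muscle type cytochrome oxidase subunit Cox6a2, from 1.08, 0.765 and 1.12 to 6.2, 6.25 and 7.88 FPKM (1.97 ± 0.17, adjusted p = 5.89e-05), the hormone Stc1, from 0.743 to 4.48 FPKM by the means (1.65, adjusted p = 7.55e-04), and the mitochondrial aldehyde dehydrogenase Aldh1b1, from 0.453 to 3.56 FPKM (1.65, adjusted p = 5.4e-06). Prkaa2, a catalytic subunit of AMPK, went from 2.65, 2.06 and 1.83 to 5.99, 4.8 and 5.32 FPKM (1.01 ± 0.14, adjusted p = 0.00154). Hsp90ab1, the cytosolic Hsp90, rose from 596, 646 and 642 to 852, 958 and 947 FPKM (0.55 ± 0.07, adjusted p = 7.18e-04), 1 of 5 risen among 19 heat shock chaperones (3 to 4 without 1 of the compared libraries, 1 among replicates 2 and 3 alone). Of these 19 genes 26.3% were called, against 6.46% of all genes. The mitochondrial chaperones Hspa9 and Hspd1 rose by 0.32 and 0.28 and the chaperonin subunit Tcp1 by 0.22. The call of Tcp1 was lost without 5 of the 6 compared libraries in turn (adjusted p up to 0.131) and with median ratio scaling (0.0694) or quantile normalization (0.118). TGF-beta genes had 0 of 18 called (limma, 5 at an unadjusted p under 0.05, against 1941 of 10152 genes tested). With the replicate block 1 of them fell, and 3 fell without Zmiz1-titled replicate 2. Cholesterol synthesis had 1 of 23 risen, Mvd (3 with the replicate block), and respiratory chain subunits 1 of 30, Atp5b, whose call was lost without any 1 of the compared libraries (adjusted p = 0.0607 to 0.113). These shares were 4.35 and 3.33%, against 6.46% of all genes.

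The lists of signaling, T lineage and stress genes had calls in small numbers, and their shares are set beside the 6.46% of all genes. The Notch machinery, interferon and TGF-beta lists had 0%. ERK feedback and ETS genes had 33.3% called, hypoxia genes 26.3%, and cytokine receptor and Stat genes 23.8%. T lineage factors had 16% and the PI3K list 15.4%. Immediate early genes had 11.1%, and p53 targets, T cell receptor genes and the Bcl2 family 10% each. These last shares are near that of all genes and rest on very few calls, with 1 each for immediate early genes and the Bcl2 family. They are not read as an excess. Of 25 T lineage transcription factors 3 rose, Mecom, Etv5 and the inhibitor of DNA binding Id1, from 3.04 to 5.72 FPKM by the means (0.73, adjusted p = 0.00729), and 1 fell, the chromatin organizer Satb1 (-0.29). Of 9 ERK feedback and ETS genes 3 rose, Etv5 and the phosphatases Dusp4 (0.47) and Dusp5 (0.36). Both phosphatases lost their calls without any 1 of the compared libraries (adjusted p = 0.075 to 0.165 and 0.0568 to 0.111). Of 19 hypoxia genes 3 rose and 2 fell, with the prolyl hydroxylase Egln3 from 32.5 to 44.5 FPKM by the means (0.44, adjusted p = 0.00609), the growth factor Vegfa from 1.33 to 2.13 FPKM (0.43, adjusted p = 0.00628), P4ha2, and Ndrg1 by -0.58, a call lost without any 1 of the compared libraries (0.0741 to 0.111). Of 9 immediate early genes 1 rose, Ier5 (0.32, adjusted p = 0.00331).

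Of 21 cytokine receptor and Stat genes 2 rose, Il7r and the feedback inhibitor Socs3 (0.62), and 3 fell, among them the repressor Bcl6 (-0.36, adjusted p = 0.00139) and the interferon gamma receptor chain Ifngr1 (-0.25). Without 1 of the compared libraries 1 to 2 rose and 1 fell, and among replicates 2 and 3 alone 1 rose and 0 fell. Of 26 genes of the PI3K pathway 1 rose, Prkaa2, and 3 fell, the lipid phosphatase Inpp4b (-0.59), Prr5 (-0.35) and Sesn1 (-0.26). Without 1 of the compared libraries 0 to 1 of that list fell, and 0 among replicates 2 and 3 alone. Of 20 p53 targets the nuclease Aen rose (0.29) and Sesn1 fell, against 0 to 1 in each direction without 1 of the compared libraries, 0 among replicates 2 and 3 alone, and 1 rising and 3 falling with the replicate block. Of 30 T cell receptor genes 2 rose, Ptcra and the recombinase subunit Rag2 (0.57), and 1 fell, Cd7, against 1 to 2 rising and 1 falling without 1 of the compared libraries, 1 and 0 among replicates 2 and 3 alone, and 3 and 5 with the replicate block. Of 10 Bcl2 family genes 1 fell, the cell death activator Bmf (-0.37). The calls of Satb1, Socs3, Ifngr1, Inpp4b, Prr5, Sesn1, Aen, Rag2 and Bmf were each lost without 5 or 6 of the 6 compared libraries in turn (highest adjusted p = 0.14, 0.101, 0.115, 0.0653, 0.0895, 0.094, 0.157, 0.0891 and 0.124).

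The combined libraries were set beside each single-vector group to see where they stood between them. These comparisons share libraries with the one above, so they are not independent of it. Against the Notch1-titled libraries 153 genes were called (1.51%), against the Zmiz1-titled 392 (3.86%). These counts depended on the libraries too. The first ran from 75 (without combined replicate 1) to 306 (without Zmiz1-titled replicate 2) and was 260 with the replicate block, and the second ran from 184 (without combined replicate 3) to 505 (without Notch1-titled replicate 3) and was 721 with the block. Among replicates 2 and 3 alone they were 44 and 112. Of the 33 ER genes 7 were higher than in the Notch1-titled libraries, among them Hyou1, by 0.59 (adjusted p = 0.00305), and 0 were lower, with a median of 0.26. The calls of 5 of these 7, Calr, H47, Hsp90b1, Manf and Txndc5, were lost without at least 1 library (highest adjusted p = 0.11 to 0.21), and that of H47 with the replicate block (adjusted p = 0.0578). Hspa5, at 291 ± 7.38 FPKM (SD, n = 3) in Notch1-titled libraries, was 0.45 higher in combined ones and not called (adjusted p = 0.0696). Against the Zmiz1-titled libraries 22 ER genes were higher and 2 lower. Of 26 amino acid stress, serine and one-carbon genes 4 were higher than in Notch1-titled libraries, of 20 synthetases 1 (Nars) and of 23 nucleotide genes 0. None of these lists had a lower gene there. The calls of Slc7a5 and Nars were lost without at least 1 library (limma, highest adjusted p = 0.0919 and 0.153). Against the Zmiz1-titled libraries 11 (and 2 lower), 10 and 4 of these lists were higher.

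Zmiz1 itself was 0.51 lower in combined than in Zmiz1-titled libraries, at 49.3 and 70.8 FPKM by the means (limma, adjusted p = 3.12e-04). That call was lost with quantile normalization (adjusted p = 0.0503) and among replicates 2 and 3 alone (0.0514). Its bearing on the levels of other genes was not tested. Some genes lay between the single-vector groups, which moved apart. Il7r was at 129 ± 11.5 FPKM in Zmiz1-titled, 29.6 ± 2.44 FPKM in Notch1-titled (SD, n = 3) and 50.3 to 55.5 FPKM in control libraries. The combined libraries, at 81.3 to 87.5 FPKM, were 1.48 above the Notch1-titled (adjusted p = 3.01e-06) and 0.61 below the Zmiz1-titled ones (adjusted p = 0.0014). Etv5, an ETS transcription factor, followed the same order, at 179 ± 6.2, 31.8 ± 1.71 and, in combined libraries, 103, 94.5 and 97.8 FPKM, against 74.1, 72.5 and 71.9 FPKM in control (0.43 ± 0.06, adjusted p = 9.83e-04). Gzma was at 2253 and 250 FPKM by the means of the single-vector groups and 1127 FPKM in the combined group, 2.17 above the Notch1-titled (adjusted p = 9.72e-08) and 1.00 below the Zmiz1-titled libraries (adjusted p = 4.06e-05). Wfs1, an ER membrane protein, was at 6.43 ± 1.95 FPKM in Zmiz1-titled and 0.393 ± 0.0637 FPKM in Notch1-titled libraries, and at 2.92, 3.08 and 2.91 FPKM in combined against 0.682, 0.673 and 0.643 FPKM in control libraries (1.25 ± 0.14, adjusted p = 4.3e-04). Gpr56 had the opposite order, at 7.4 and 19.7 FPKM in these groups.

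**Figure D5:**
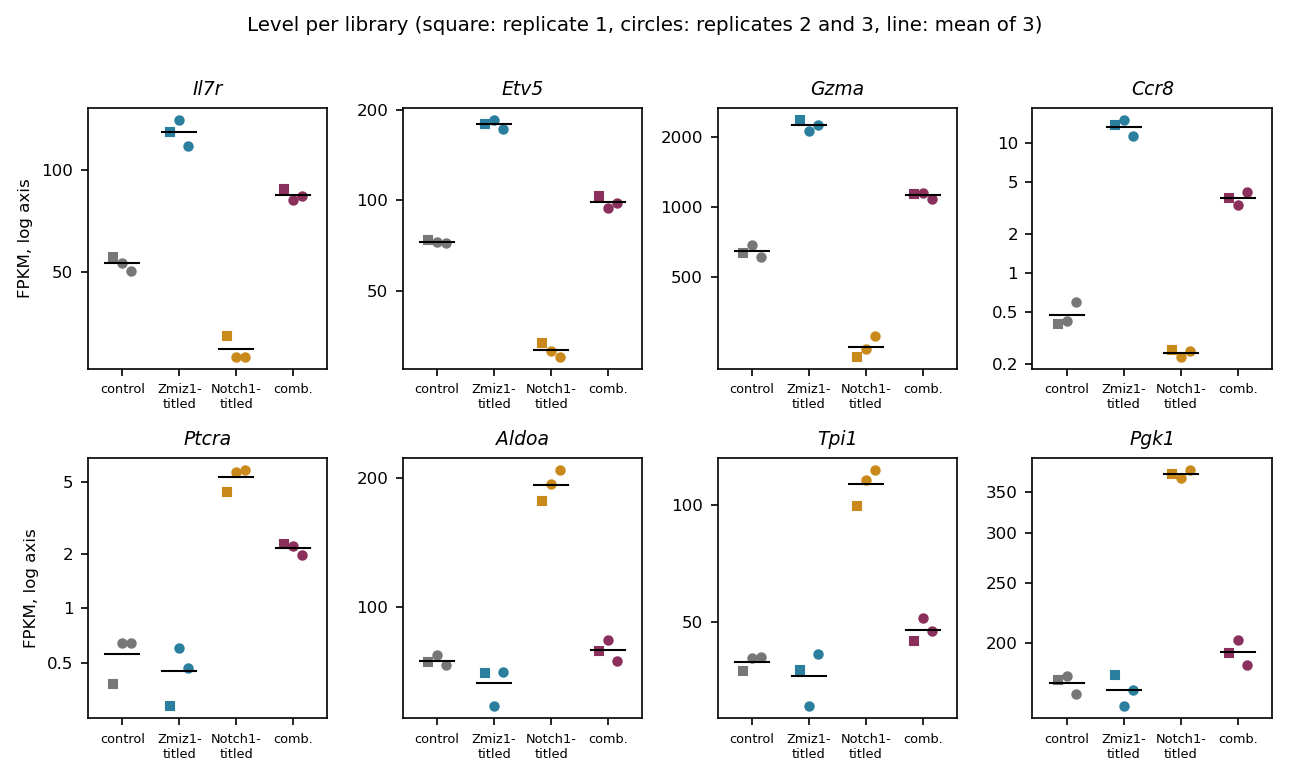
FPKM in each library on a log axis for 8 genes that differ between the combined group and at least 1 single-vector group. Il7r, Etv5, Gzma and Ccr8 lie between the Zmiz1-titled and Notch1-titled libraries in the combined group, Ptcra lies between control and Notch1-titled libraries, and the glycolysis genes Aldoa, Tpi1 and Pgk1 are near control in the combined group, as with Aldoa at 74.4 to 83.5 FPKM against 193 ± 16.5 FPKM in the Notch1-titled group.

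Glycolysis genes were near the control level with both vectors. Of 19 tested genes 2 rose against control and 0 fell (median 0.08), Pgam1 by 0.37 and Ldha by 0.22, and Ldha lost its call without any 1 of the compared libraries. Aldoa, an aldolase, was at 74, 76.9 and 73.1 FPKM in control and at 78.7, 83.5 and 74.4 FPKM in combined libraries (0.08 ± 0.09, adjusted p = 0.719), while the Notch1-titled libraries had 193 ± 16.5 FPKM (SD, n = 3) and were 1.28 higher than the combined ones (adjusted p = 1.59e-05). Pgk1 followed, at 173, 194 and 374 FPKM by the means of control, combined and Notch1-titled libraries (combined against Notch1-titled -0.95, adjusted p = 7.7e-06). Against the Notch1-titled libraries 10 of the 19 genes were lower with both vectors and 0 were higher.

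Ptcra was likewise lower with both vectors than in the Notch1-titled libraries, at 5.29 ± 0.805 FPKM there (SD, n = 3; -0.99, adjusted p = 0.00181). Dtx1, at 1.74 ± 0.221 FPKM in those libraries, was 0.80 lower with both vectors (adjusted p = 5.71e-05). A term for the combined libraries' difference from the sum of the single-vector differences called 7 genes in all (0.069%). Myc was above the sum by 1.61 (adjusted p = 0.0019), and Ccr8 was below it by 1.33 (adjusted p = 0.00735). Plac8 (0.98, adjusted p = 0.00194) fell by less than the sum. Aldoa (-1.10, adjusted p = 0.00633), Pgk1 (-0.91, adjusted p = 0.0019) and Tpi1 (-1.10, adjusted p = 0.0464) were below the sum, and so was Zmiz1 itself (-0.56, adjusted p = 0.0266). The calls of Tpi1 and Zmiz1 were each lost without 10 of the 12 libraries in turn (adjusted p up to 0.207 and 0.131), and that of Tpi1 with the replicate block (adjusted p = 0.0760). At a pseudocount of 0.1 the departures of Myc and Ccr8 were 1.17 and -1.05 and were not called.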

How the data were processed

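RNA was extracted from sorted cells and made into unstranded mRNA libraries with a TruSeq v2 kit, per the labels' protocols. The authors deposited 1 table of FPKM per library. The mm10 build is named in the submitters' processing notes, as are Cuffdiff 2.1.1 and Cufflinks, TopHat2 2.0.9 and Bowtie2 2.1.0.0, and FastQC 0.10.0, without their roles. Read depth is not given in the sources used here, so no interval from counting error is given, and FPKM of overlapping or antisense genes cannot be separated by strand.

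Differences were tested with limma 3.58.1 (R 4.3.3) on log2(FPKM + 1), with a pseudocount of 1, for genes that averaged 1 FPKM or more. All 12 libraries in 4 groups shared 1 estimate of the spread with an intensity trend. The p-values are two-sided and adjusted by Benjamini-Hochberg over 10152 genes, at 0.05. With 3 against 3 libraries an exact permutation test of 1 gene cannot go below p = 0.1, so none was used. Tables and plots were made with Python 3.11.15, pandas 2.3.3 and matplotlib 3.10.9. The tests were checked on simulated data with independent spread in each library. That check does not cover spread shared by same-numbered libraries. Gene positions are from GENCODE M21, where 9148 tested symbols had 1 position. Promoters are from RefSeq.

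Same-numbered control and combined libraries deviated together from their group means (correlations 0.289 to 0.713 over 3 pairs, against -0.695 to 0.461 over 6 pairs of different numbers and -0.202 to 0.555 over 15 same-numbered pairs of the other group combinations). Control replicate 3 and combined replicate 2 correlated at 0.461, above control replicate 2 and combined replicate 2 at 0.289. Pairing by number was therefore not shown, and the labels do not state it. It was not told apart from a difference shared by the replicate 1 libraries. A fit with the replicate number as a block was run beside the fit above. Alternatives were other pseudocounts, filters, scalings, covariates and left-out libraries, and the fits on replicates 2 and 3, the term for replicate 1 and the fit without short noncoding RNA were chosen after seeing the data.

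The comparison and the gene lists were chosen with earlier results of these data known. Genes are named by a rule: the 12 largest called rises and falls without overlap, passing over predicted genes, small RNA genes and pseudogenes, the 4 largest called changes per list, 14 genes named always, and the 6 largest departures from additivity. Other called list members are named after their values were seen.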

Additional observations from a re-analysis of the deposited data

Results flagged for a closer look

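The results below differed between the combined libraries and the sum of the single-vector differences, by a term for that departure in the limma fit over all genes. Myc was above the sum by 1.61 and Plac8 by 0.98. Zmiz1 was below it by 0.56 (-0.56), Ccr8 at -1.33, Aldoa at -1.10, Tpi1 at -1.10 and Pgk1 at -0.91, while Dtx1 was at -0.81 and Notch3 at -0.85 where genes below the filter were fitted too. The calls of Myc, Ccr8, Plac8, Dtx1, Aldoa and Pgk1 held without any 1 of the 12 libraries. Those of Zmiz1 (adjusted p up to 0.131), Tpi1 (up to 0.207) and Notch3 (up to 0.109) were each lost without 10 of the 12 libraries in turn. Among replicates 2 and 3 alone only Myc of these 9 was called (adjusted p = 0.0166), and at a pseudocount of 0.1 Myc (1.17), Ccr8 (-1.05), Zmiz1, Tpi1 and Notch3 were not called. Quantile normalization ended the calls of Zmiz1, Ccr8 and Tpi1, and the replicate block those of Tpi1 (adjusted p = 0.0760) and Notch3 (adjusted p = 0.0851). The departure is additive on the log2(FPKM + 1) scale, so it depends on that scale for low genes.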

How the results depend on the processing

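The direction of the named differences held under every alternative except for Aldoa, which was not called and went from 0.08 to -0.0023446 with quantile normalization. The 656 calls (403 rising, 253 falling) became 1158 (723, 435) with the replicate block, 1386 (838, 548) with only the 2 groups compared, 3422 (2151, 1271) with both of these, 1239 (773, 466) with a term for the replicate 1 libraries, and 195 (136, 59) among replicates 2 and 3 alone. A filter at a mean of 5 FPKM left 152 falling. Without any 1 library the calls ran from 339 to 1090, the rising ones from 214 to 666 and the falling ones from 123 to 424, with the highest of each without Zmiz1-titled replicate 2. Fewer samples go with the counts among replicates 2 and 3 and with left-out compared libraries; for the other settings the cause was not tested. Of 163 genes followed through the settings 72 lost their call among replicates 2 and 3 alone, 13 with median ratio scaling, 14 with quantile normalization and 0 with the replicate block. The block ended no other call printed against control. Read depth is not given, so what depth limits cannot be stated, and differences of low genes are understated by the pseudocount.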
